A study of Mus musculus with 2 samples.

Results

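The cell-surface mucin genes Muc1, Muc4, Muc13, Muc15, Muc16 and Muc20 were examined in RNA sequencing of the whole mouse uterus on day 4 of pregnancy. They were taken by gene symbol from the authors' table of 22740 genes, in which 5 of the 6 symbols have a row. Muc16 was not analysed here. The study holds 2 libraries, each from the whole uterus of a separate C57BL/6 mouse whose library title begins with WT, and both belong to 1 group with no treatment. The labels used here give no age. The libraries are called uterus 1 and uterus 2. Levels are RPKM, reads scaled to the length of the transcript and to the size of the library. This allows levels of genes to be set side by side, but takes no account of reads that match more than 1 place.

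Surface mucins are large membrane glycoproteins whose extracellular part carries dense O-linked sugars on stretches rich in serine, threonine and proline. On the apical side of the uterine epithelium they form a coat that lubricates, holds off microbes and hinders the attachment of the embryo. Muc1 is the best studied of them in the mouse uterus, where it is known as a hormone-regulated gene of the luminal and glandular epithelium. Muc4 has growth-factor-like domains and binds the receptor Erbb2. Muc16 is known as a ligand of mesothelin, Muc13 is best known from the gut, Muc20 binds the receptor Met, and Muc15 is a small member of the group.

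Exactly recurring stretches were located in the annotated transcripts, because reads from them can match more than 1 place. This counts identical letters only: it misses repeats that have diverged and does not locate the sugar-bearing parts. For each gene the longest protein-coding transcript of GENCODE M1 was read in windows of 50 bases, and windows whose letters recur in the same transcript were counted. In Muc1, 28 of 2193 windows (1.28%) recurred, all in exon 2 of 7. In Muc4, 1136 of 11228 windows (10.1%) recurred, from exon 2 to exon 4 of 27. In Muc13, 414 of 2920 windows (14.2%) recurred, all in exon 3 of 13. No window recurred in Muc15 or Muc20. The window with the most copies in each of the 3 genes with recurring windows is given next, in lower case, 5′ to 3′ on the coding strand, with the place of its first copy on NCBIM37. It shows how much the exact repeats of these genes differ in spacing.
Muc1, chr3:89034015-89034064: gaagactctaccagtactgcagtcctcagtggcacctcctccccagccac
Muc4, chr16:32752190-32752239: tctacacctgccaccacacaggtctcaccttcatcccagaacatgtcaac
Muc13, chr16:33799116-33799165: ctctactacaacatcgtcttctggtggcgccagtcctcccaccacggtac
The Muc1 window occurs 2 times, 312 bases apart. The Muc4 window occurs 6 times, and its most frequent spacing is 372 bases, found 3 times. The Muc13 window occurs 6 times, with all 5 spacings at 81 bases. All copies lie in coding sequence, and 312, 372 and 81 bases are each a whole number of codons. How the authors counted reads with several matches is not given in the sources used here, and the part of these repeats in the levels was not tested.

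Muc1 was the 1 surface mucin with a clear signal. Its level was 5.60 RPKM in the first uterus and 5.57 RPKM in the second, a mean of 5.59 ± 0.0210 RPKM (SD, n = 2). The values rested on 48 and 53 reads, recovered from the deposited RPKM, and the 95% counting intervals (exact Poisson) ran from 4.13 to 7.43 RPKM and from 4.17 to 7.29 RPKM. The difference between the uteri was far smaller than the width of either interval. Muc1 (NM_013605) lies on the plus strand of chromosome 3, from 89032974 to 89037291 on NCBIM37, and its reads refer to a counted length of 2235 bases.

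The level of Muc4 was 0.208 RPKM in uterus 1 against 0.188 RPKM in uterus 2, a mean of 0.198 ± 0.0146 RPKM (SD, n = 2). Each value rested on 9 reads over a counted length of 11276 bases. The counting intervals ran from 0.0952 to 0.395 RPKM and from 0.0858 to 0.356 RPKM, well below those of Muc1 in both uteri. Muc1 exceeded Muc4 26.9-fold in uterus 1 (95% counting interval 13.1 to 62.4) and 29.7-fold in uterus 2 (14.5 to 68.5). Muc4 (NM_080457) lies on the plus strand of chromosome 16, from 32735972 to 32782476.

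The other 3 genes held at most 1 read in a library. Muc13 (NM_010739, plus strand of chromosome 16, 33794123 to 33820013) lay at 0.0878 RPKM on 1 read in uterus 1 and was listed at 0 in uterus 2. Muc15 (NM_172979, plus strand of chromosome 2, 110561765 to 110578120) was listed at 0 in uterus 1 and lay at 0.148 RPKM on 1 read in uterus 2. Muc20 (NM_146071, minus strand of chromosome 16, 32785870 to 32797521) was listed at 0 in both. These 3 genes cannot be ordered among themselves or set apart from Muc4 at this depth, since their counting intervals, or the limits of their zeros, overlap. Muc15 also lies inside Ano3, a gene on the other strand with 4 and 5 reads, and whether the counting used strand is not given in the sources used here, so its single read cannot be assigned to Muc15 with certainty.

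**Figure D1:**
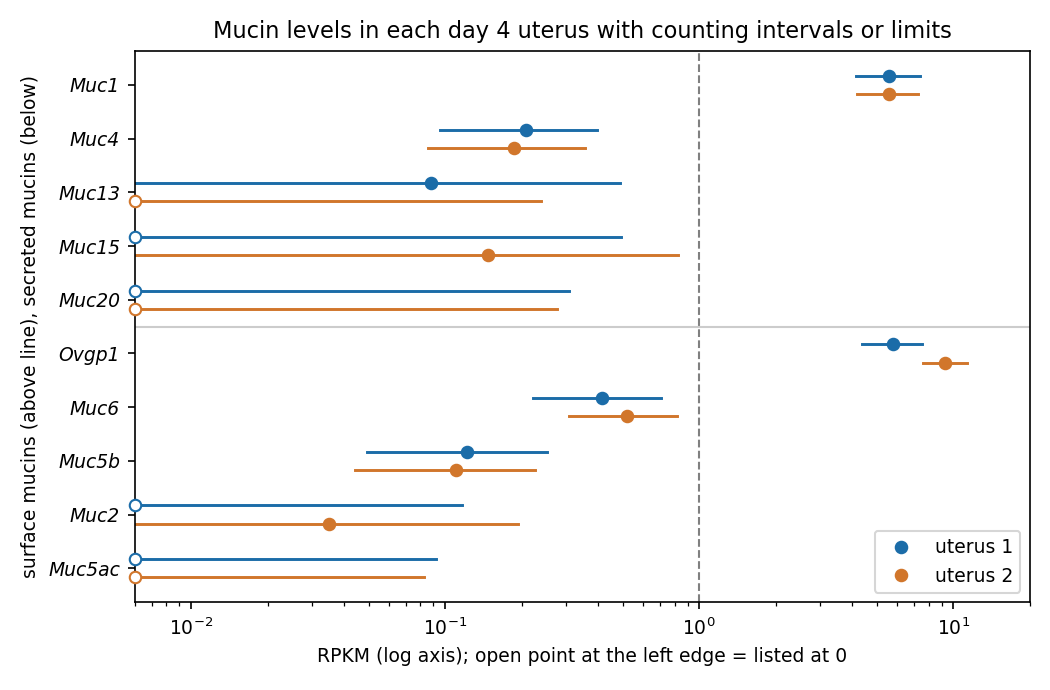
RPKM of the surface mucins (above the line) and the secreted mucins (below it) in each uterus on a log axis, with points for the deposited values, bars for exact 95% Poisson counting intervals (for a listed 0, up to the limit of 3 reads) and a dashed line at 1 RPKM. Muc1 sits at 5.60 and 5.57 RPKM, to the right of the line, and the bars of the other 4 surface mucins all end to its left.

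A listed 0 is not read as absence. Of 72 ribosomal protein genes, which every cell uses, Rpl26 was also listed at 0 in both libraries, so a 0 in these tables can be a failed estimate. If the zeros are counts, the limit that a count of 0 allows (3 reads) is 0.306 RPKM in uterus 1 and 0.276 RPKM in uterus 2 for Muc20, over an annotated length of 2555 bases. The same limit is 0.237 RPKM for Muc13 in uterus 2 and 0.492 RPKM for Muc15 in uterus 1. Under that condition all 4 limits lie below 1 RPKM.

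At 1 RPKM or more in both uteri, 1 of the 5 surface mucins was detected, against 58.4% of all 22740 genes. By mean RPKM, Muc1 ranked 9720 of all genes and lay above 57.3% of them, and Muc4 ranked 15834. Muc1 made up 94.98% of the summed RPKM of the 5 genes in uterus 1 and 94.3% in uterus 2. The sum was 5.90 RPKM in uterus 1 and 5.91 RPKM in uterus 2. At the RNA level the name surface mucins of the uterus thus fitted Muc1, whereas Muc4, Muc13, Muc15 and Muc20 were listed under 1 RPKM in both uteri.

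**Figure D2:**
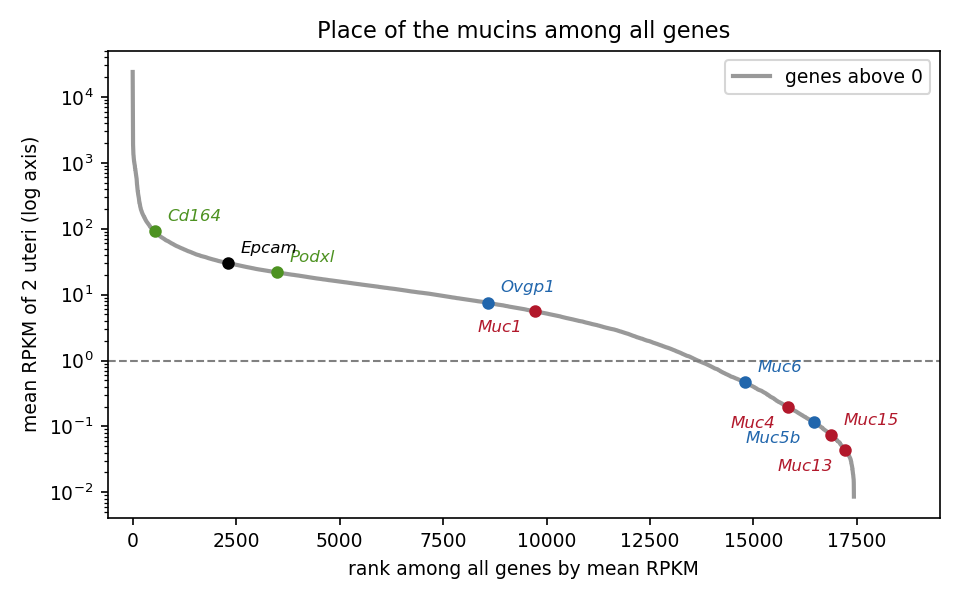
Mean RPKM of both uteri (log axis) against rank for all genes above 0 (grey), with surface mucins in red, secreted mucins in blue, other membrane glycoproteins in green and Epcam in black. Muc1 lies at rank 9720 on the flat middle of the curve, and Muc4, Muc15 and Muc13 lie on its steep lower end under the dashed line at 1 RPKM.

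The uteri were compared by a two-sided exact binomial test on the recovered reads, with Benjamini-Hochberg adjustment over all genes tested. This compares the 2 libraries, not conditions. Muc1 and Muc4 had enough reads, and neither was called (adjusted p of 1 for each), while 702 of 15124 genes were called over the whole table (4.64%). The ratio of uterus 2 to uterus 1 was 0.995-fold for Muc1, with a 95% counting interval from 0.660 to 1.502, and 0.901-fold for Muc4, with an interval from 0.317 to 2.56. Differences within those intervals remain possible at this depth. The intervals do not give the smallest difference that the test could call, and larger differences may also go uncalled. On the scale of log2(RPKM + 0.1) the difference was -0.01 for Muc1 and -0.10 for Muc4. Among 1577 genes with a mean between 0.8 and 1.25 times that of Muc1, the SD of this difference was 0.36. Muc1 was not 2-fold apart between the libraries, whereas 2.60% of the 13647 genes whose mean reached 1 RPKM were.

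The promoters of the 2 surface mucins with reads in both uteri are given to show how the letters before their starts differ. They are the 250 bases before the RefSeq start on GRCm38.p6, a later build than that of the levels, so these coordinates are not comparable with those above. Capitals mark the TATA box (TATAAA) and the GC box (GGGCGG), each searched on both strands, and the 2 motifs share no bases here.
Muc1, plus strand, chr3:89228806-89229055: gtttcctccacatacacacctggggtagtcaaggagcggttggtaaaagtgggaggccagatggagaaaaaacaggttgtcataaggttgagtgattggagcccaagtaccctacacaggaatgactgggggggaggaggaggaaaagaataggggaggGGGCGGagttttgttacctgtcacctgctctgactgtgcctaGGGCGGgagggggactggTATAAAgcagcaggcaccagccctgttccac
Muc4, plus strand, chr16:32735636-32735885: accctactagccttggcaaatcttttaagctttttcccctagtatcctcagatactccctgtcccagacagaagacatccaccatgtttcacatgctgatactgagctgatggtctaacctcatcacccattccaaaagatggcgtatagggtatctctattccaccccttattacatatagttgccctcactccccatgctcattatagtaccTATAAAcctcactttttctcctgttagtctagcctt
The Muc1 window holds a TATA box beginning at position -31 from the start and GC boxes at -91 and -49. The Muc4 window holds a TATA box at -36 and no GC box. TATAAA was found in 12.4% and GGGCGG in 32.7% of all 32851 RefSeq promoter windows of the same length. The Muc1 window has a GC content of 54.8% and 3 CpG dinucleotides, the Muc4 window 43.6% and 1, and the median promoter 52.4% and 6. The Muc20 window holds neither motif at a GC content of 57.2%, and the 2 annotated starts of Muc13 hold neither as well. The letters AGGTCA, the core that the oestrogen receptor binds, and AGAACA, the core that the progesterone receptor binds, were absent from the windows of Muc1 and Muc4 and present in 14.0% and 16.1% of all windows. AGGTCA was found in the windows of both Muc13 starts, 1 time in the first, at -25, and 2 times in the second, at -234 and -144, whereas the Muc20 window held neither run of letters and AGAACA was in neither Muc13 window. A match is a description of the letters and not of binding. Of the 5 genes, 4 had an entry among these promoters.

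Muc4, Muc20 and Muc13 lie on 1 stretch of chromosome 16. Muc20 begins 3393 bases beyond the end of Muc4 on the opposite strand, and Muc13 lies a further 997 kb along. Of the 19 genes of the table from Tnk2 to Itgb5, 12 were detected at 1 RPKM or more in both uteri, a share near the 58.4% of all genes, and the 3 mucins were not among them. Tnk2, a tyrosine kinase gene 52.4 kb before Muc4, lay at 14.5 and 10.7 RPKM. Gm933, 7.45 kb beyond Muc20, was listed at 0 in both uteri. Muc13 sits between Heg1, a membrane protein gene of the vessel wall that also has a mucin-like part, and Itgb5, an integrin subunit gene. Heg1 lay at 59.5 and 49.2 RPKM, and Itgb5 at 28.4 and 27.99 RPKM.

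**Figure D3:**
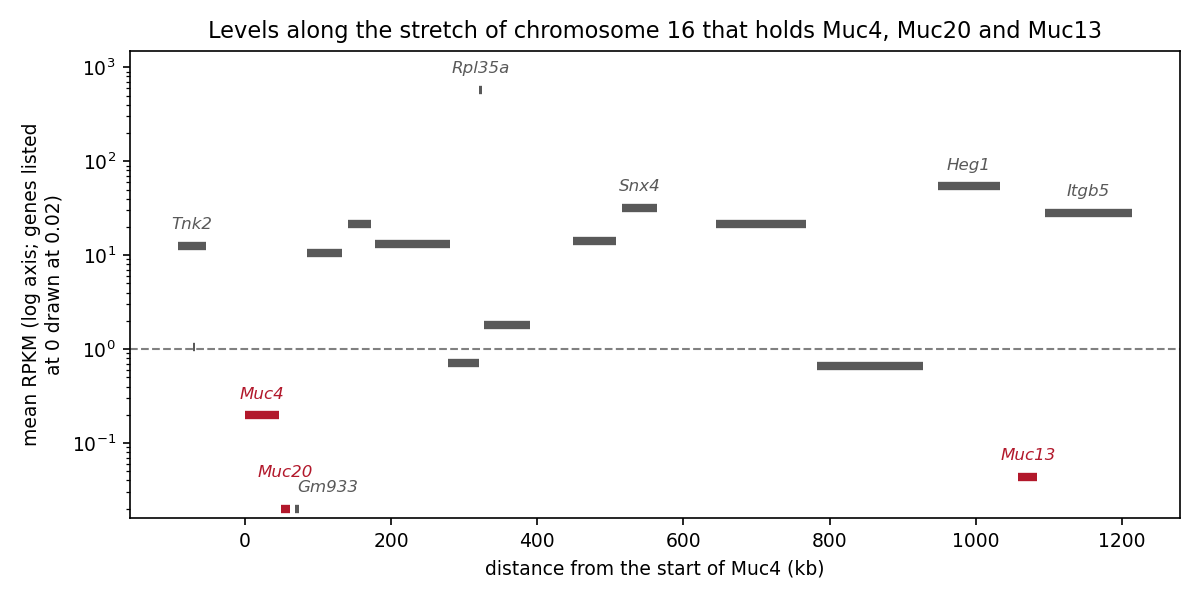
Mean RPKM of both uteri (log axis) for the 19 genes of the chromosome 16 stretch against distance from the start of Muc4 in kb, with each bar spanning a gene and mucins in red. Muc4 at 0.198 RPKM, Muc20 (listed at 0) and Muc13 lie under the dashed line at 1 RPKM, while Heg1 and Itgb5 beside Muc13 lie above 20 RPKM.

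Muc1 is flanked closely by active genes. Thbs3, which encodes a thrombospondin of the matrix, ends 2214 bases before Muc1 on the same strand and lay at 34.4 and 40.8 RPKM. Trim46, on the opposite strand 807 bases beyond Muc1, lay at 4.07 and 3.38 RPKM. Neither overlaps Muc1 in the deposited coordinates.

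The mucins are products of the epithelium, so their levels were set beside epithelial markers. Of 13 epithelial genes, 12 were detected in both uteri, with a median of 21.3 RPKM in uterus 1 and 24.4 RPKM in uterus 2. Epcam, an epithelial adhesion molecule, lay at 26.4 and 33.5 RPKM, and Krt8, a keratin of simple epithelia, at 69.4 and 78.5 RPKM. Muc1 stood at 26.3% of the epithelial median in uterus 1 and 22.8% in uterus 2, and Muc4 at 0.978% and 0.768%. Against Epcam the mean share of Muc1 was 18.9%, and against Krt8 it was 7.59%. In whole tissue, fewer cells of a type and less RNA per cell cannot be told apart.

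Of the 13 epithelial genes tested, 2 were called different between the libraries by the exact binomial test, against 4.64% of all genes. Krt18 rose from 70.4 RPKM in uterus 1 to 94.3 RPKM in uterus 2 (adjusted p 0.000681), and Cldn4, a tight junction gene, fell from 11.4 to 5.19 RPKM (adjusted p 0.00232). Muc1 stood at 5.60 and 5.57 RPKM in the same libraries. Stroma (6 of 6 markers, median 452 and 550 RPKM) and smooth muscle (5 of 5, median 314 and 350 RPKM) lay far above the epithelium. Mesothelium, the outer lining of the uterus, was represented by 5 of 5 markers, with Msln at 3.21 and 3.55 RPKM and Upk3b at 5.76 and 7.27 RPKM, while Wt1 of that list is also known from the uterine stroma. Endothelial (5 of 5) and leukocyte (5 of 6) markers were detected as well. Gland markers were detected for 4 of 5, led by Spink3 at 46.4 and 71.8 RPKM. The exact binomial test also called 3 of 6 stroma, 2 of 5 smooth muscle and 1 of 5 endothelial markers. Of the stroma calls, Col1a1 fell from 1184 RPKM in uterus 1 to 851 RPKM in uterus 2 (adjusted p 2.39e-225), and the other 2 rose. No gland, mesothelium or leukocyte marker was called. Calls were thus not confined to the epithelium. For the blastocyst 1 of 5 markers passed, Gata6 (2 of 5 at a threshold of 0.5 RPKM), while Cdx2 was listed at 0 in both. Pou5f1 held 3 reads in uterus 1 and 1 read in uterus 2, and Nanog held 5 reads and 1 read. Whether the reads of Gata6 came from embryos or from the uterus was not tested.

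Among the secreted mucins, which form gels or fluids rather than a membrane-bound coat, 1 of 7 was detected in both uteri. This was Ovgp1, the oviduct glycoprotein also called mucin 9, at 5.78 and 9.31 RPKM (56 and 100 reads). It was not called by the exact binomial test (adjusted p 0.0837), and the ratio of uterus 2 to uterus 1 was 1.61-fold with an interval from 1.15 to 2.27. Of the 6 oviduct and ovary markers, 2 were detected in both uteri, Ovgp1 itself and Star, a gene of steroid synthesis, at 2.93 and 3.87 RPKM. Amh lay at 0.783 and 0.706 RPKM on 5 reads each, and Cyp11a1 held 3 reads in uterus 1 and 1 read in uterus 2. Foxj1 of ciliated cells and Fshr, the receptor of follicle-stimulating hormone, were listed at 0 in both uteri. Whether oviduct RNA contributed was not tested.

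The gel-forming mucins lay under 1 RPKM. Muc6 lay at 0.415 RPKM on 13 reads and 0.518 RPKM on 18 reads, and Muc5b at 0.122 and 0.110 RPKM on 7 reads each. Muc6 exceeded Muc4 1.99-fold in uterus 1 (95% counting interval 0.789 to 5.29) and 2.76-fold in uterus 2 (1.18 to 6.98), so the order held beyond counting error in uterus 2 and not in uterus 1. Muc2, the main gut mucin, held 1 read in uterus 2 and was listed at 0 in uterus 1. Muc5ac, Muc19 and Prol1 were listed at 0 in both. In Muc6 and Muc5b, 12.8% and 21.9% of the 50-base windows recurred within the transcript.

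A list of other membrane glycoproteins, made up of sialomucins, a mucin-like gene and the adhesion molecule Mcam, had 5 genes in the table, all detected in both uteri. Each lay above Muc4, and 4 of the 5 lay above Muc1. Cd164, an endosomal and surface sialomucin of many cells, lay at 92.5 and 91.3 RPKM. Mcam, an adhesion molecule of the immunoglobulin family found on vessels and smooth muscle, fell from 65.7 RPKM in uterus 1 to 52.4 RPKM in uterus 2, the 1 call among the 5 in the exact binomial test (adjusted p 0.00154), against 4.64% of all genes. Emcn, endomucin of the endothelium, lay at 40.2 and 40.04 RPKM, and Podxl, podocalyxin, at 21.5 and 21.8 RPKM. Parm1, an androgen-regulated mucin-like gene, was the exception at 4.00 and 4.06 RPKM. On the RPKM scale Cd164 exceeded Muc1 16.5-fold and 16.4-fold, and Podxl exceeded it 3.84-fold and 3.92-fold.

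Of molecules known to bind the surface mucins, all 12 genes of the list were detected in both uteri, against 58.4% of all genes. Their medians were 14.5 and 16.03 RPKM. None was called different between the libraries, against 4.64% of all genes, so the lack of a call among 12 genes says little. Which cells of the uterus held this RNA was not tested. Erbb2, the receptor that Muc4 binds, lay at 9.81 and 7.85 RPKM, and its relative Erbb3 at 7.40 and 6.37 RPKM. Met, the hepatocyte growth factor receptor that Muc20 binds, lay at 8.31 and 8.30 RPKM. For the tail of Muc1, Ctnnb1 (beta-catenin) lay at 221 and 218 RPKM, Src at 14.6 and 16.1 RPKM and Grb2 at 24.4 and 21.4 RPKM. The galectin Lgals3, which binds mucin sugars, lay at 14.5 and 18.5 RPKM.

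The 5 membrane proteases that can release the outer part of surface proteins were detected in both uteri. Adam17 lay at 21.4 and 21.8 RPKM and Adam9 at 27.96 and 26.0 RPKM, and neither was called. Mmp14 fell from 109 RPKM in uterus 1 to 93.1 RPKM in uterus 2 (exact binomial test, adjusted p 0.0138), and Adam10 fell from 43.5 to 36.8 RPKM (adjusted p 0.0316). These 2 calls among the 5 proteases, against 4.64% of all genes, are changes of 0.857-fold and 0.846-fold between libraries of 1 group.

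Of the enzymes that build mucin-type O-linked sugars, 17 of 23 were detected in both uteri, against 58.4% of all genes, with medians of 9.21 and 9.67 RPKM. Of the Galnt enzymes, which attach the first sugar, Galnt1 was highest at 50.8 and 50.6 RPKM, followed by Galnt11 at 27.7 and 29.8 RPKM and Galnt2 at 26.3 and 27.9 RPKM. C1galt1, which makes the core 1 structure, lay at 13.5 and 14.1 RPKM, and its chaperone C1galt1c1 at 8.13 and 9.67 RPKM. Of the core 2 enzymes, Gcnt1 lay at 12.0 and 12.1 RPKM. Gcnt3, a core 2 and core 4 enzyme of mucin-producing epithelia, rose from 16.9 to 23.2 RPKM (exact binomial test, adjusted p 0.00231), a ratio of 1.37-fold with a counting interval from 1.17 to 1.60. It was the 1 call among the 23 enzymes tested, a share near the 4.64% called over all genes. B3gnt6, the core 3 enzyme, lay at 0.331 and 0.496 RPKM on 3 and 5 reads. St3gal1, which caps core 1 with sialic acid, lay at 24.8 and 21.9 RPKM.

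**Figure D4:**
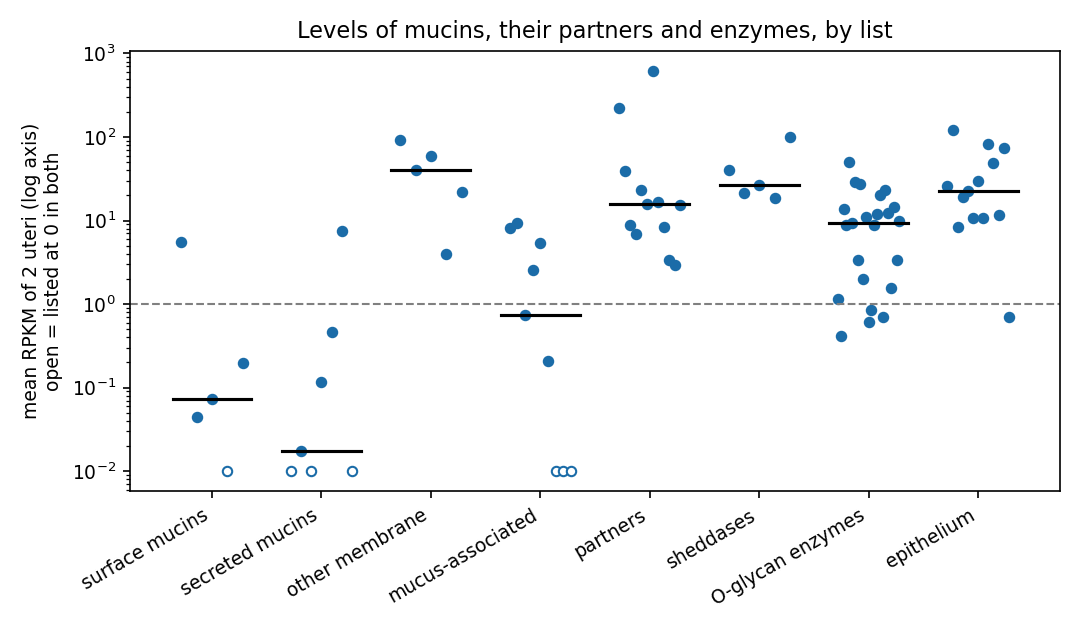
Mean RPKM of both uteri (log axis) for each gene of 8 lists, 1 point per gene in alphabetical order from left to right, open where listed at 0, with a bar at the median of the gene means and a dashed line at 1 RPKM. The surface and secreted mucin lists have medians under 1 RPKM (0.0739 and 0.0174 RPKM) with 1 gene each above the line, whereas partners, sheddases and O-glycan enzymes have medians of 15.6, 27.0 and 9.38 RPKM.

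Read beside the whole table, whose median gene lay at 3.28 and 3.23 RPKM, Muc1 was above the median gene and the other 4 surface mucins were listed below it in both uteri.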

How the data were processed

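Poly-A selected RNA from 2 whole uteri of pregnancy day 4 was sequenced on a HiSeq2500, and the authors deposited RPKM per gene, per the labels. Libraries were made with a TruSeq kit from 1 microgram of total RNA, per the labels' protocols. The submitters' processing notes name TopHat and build mm9. The annotation, the use of strand and the treatment of reads with several matches are not given in the sources used here. Deposited starts were read as counted from 0: of 20733 genes matched to GENCODE M1 on NCBIM37, 11970 had an annotated start 1 base after the deposited one, and 11873 an annotated end at the deposited end.

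Reads were recovered from the RPKM. Single-exon genes gave scaling totals of 3834174 and 4256101. All 209 and 217 such genes above 0 came out as whole reads within a relative tolerance of 1e-06. For every gene above 0, each value then equalled a whole number of reads over a whole length (largest relative distance 5.6e-15). A common factor was chosen by nearness to the annotated length (scale 0.05 in natural logarithms) and was 1 for all members with reads. The totals of recovered reads were 3781579 and 4203081. The 95% intervals, the limits and the p-values of the exact binomial test hold counting error alone. PCR duplicates of a molecule are counted as separate reads.

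Detection meant 1 RPKM in both libraries. Log2 differences used a pseudocount of 0.1 RPKM, which understates changes of low genes. The exact binomial test (SciPy 1.17.1) used genes with at least 6 reads. On simulated data with 200 genes changed 4-fold at 40 or more reads, it recovered 100% over 15107 genes, and 2.91% of its calls were false. These shares hold for the simulated data. Smaller changes and changed genes with fewer reads, such as Muc4 has, were not covered. With 1 group of 2 libraries there is no test between groups. The members and gene lists were chosen with earlier results of these data known. All members are named, list genes by count with examples. Genes of like pattern were not sought, since 1 group gives no pattern. Of the lists, Muc3, Muc3a, Muc7, Muc17, Muc21 and Cxcl15 were not analysed here, and Muc10 is a synonym of Prol1. The values of 2 further list genes are not reported here. Thresholds, pseudocounts, scalings, read recovery and leaving out a library were varied.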

Additional observations from a re-analysis of the deposited data

How the results depend on the processing

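The count of surface mucins detected stayed at 1 at thresholds of 0.5 and 2 RPKM, on the TPM scale and in either uterus alone. The exact binomial test called 0 of the 4 members with reads without a filter on low reads, and 0 of the 2 tested members with the smallest possible reads and with the ratio taken from genes with at least 100 reads. Over all genes these settings called 664, 581 and 700, against 702. At an unadjusted p under 0.05 it would call 2351 of 15124 genes and neither member. Rescaling each library to the same sum (the TPM scale) changes the unit, and gave 13.2 for Muc1 and 14.0 for the sum of the members. Leaving out 1 library gave 5.57 to 5.60 RPKM for Muc1 and 5.90 to 5.91 RPKM for the sum, within 1 SD by construction. The differences of Muc1 and Muc4 between the uteri kept their sign with every pseudocount and scaling run, but lie far inside counting error. Of 30 recounts of gene lists at other thresholds, 29 stayed within 1.5 times, and the exception was the blastocyst markers, with 1 detected at 1 RPKM and 2 at 0.5 RPKM. No paired analysis was possible because all libraries share a group. Depth limits the low genes: 1 read is worth 0.0878 RPKM for Muc13 and 0.164 RPKM for Muc15 in uterus 1.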

Other observations

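Among genes that accompany mucus in other epithelia, 4 of 9 were detected in both uteri, against 58.4% of all genes. Clca1, of a family of secreted proteins first described as chloride channel regulators, lay at 10.4 and 8.32 RPKM on 120 and 107 reads. Agr2, an endoplasmic reticulum protein needed to fold gut mucins, lay at 9.95 and 6.49 RPKM on 29 and 21 reads. Fcgbp, a mucus protein with mucin-like domains, lay at 5.76 and 5.07 RPKM on 175 and 171 reads, and Clca3, an older symbol that RefSeq pairs with the goblet cell gene gob5, at 2.58 and 2.56 RPKM. The trefoil factors Tff1, Tff2 and Tff3, small peptides secreted with gel-forming mucins, were listed at 0 in both uteri. For uterus 1 and uterus 2, the limit of 3 reads is 1.64 and 1.47 RPKM for Tff1. It is 1.37 and 1.23 RPKM for Tff2 and 1.71 and 1.54 RPKM for Tff3. All these limits lie above 1 RPKM, so the zeros cannot place these genes under the detection threshold. Spdef, a transcription factor of goblet cells, held 2 reads in uterus 1 and 1 read in uterus 2. None of the 5 tested genes of this list was called different between the libraries by the exact binomial test, against 4.64% of all genes. The adjusted p of that test was 0.473 for Clca1 and 0.558 for Agr2. With 5 genes, the lack of a call says little.

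Muc4 and Muc20 share letters in the annotation. An annotated Muc20 transcript reaches back across the end of Muc4 on the other strand, and 238 windows of 50 bases occur in both, which is 2.12% of the windows of Muc4 and 6.57% of those of Muc20. The deposited Muc20 model lies wholly beyond the end of Muc4. The 9 reads of Muc4 in each uterus and the 0 of Muc20 thus refer to separate deposited models. The use of strand in the counting is not given in the sources used here. Whether reads from the longer Muc20 transcript were counted for Muc4 was not tested.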
